A study of Ovis aries with 9 samples.

Results

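The 62 genes described here encode nuclear-encoded subunits of the mitochondrial respiratory chain and of the ATP synthase. They were chosen by their RefSeq sheep symbol, which had to begin with NDUFA, NDUFB, NDUFC, NDUFS, NDUFV, UQCR, ATP5 or one of the families COX4 to COX8, or to be SDHA, SDHB, SDHC or SDHD. The assembly factors named NDUFAF were left out. No measured value entered the choice. The 62 genes stood among 21284 genes with a RefSeq protein-coding transcript in the table, and comprised 37 genes of complex I, 4 of complex II, 1 of complex III, 3 of complex IV and 17 of complex V. Complex III was represented by UQCRH alone, and complex IV by COX5A, NDUFA4 and NDUFA4L2, so statements on these complexes rest on those genes.

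The samples were hypothalamus tissue from 9 Dolang ewes of 3 stages, with 3 animals and 3 libraries a stage. The stages were prepuberty (120 days after birth), puberty (130 days) and postpuberty (150 days), so that stage and age cannot be told apart. Pubertal ewes were recognised by estrous behaviour. Whole tissue pieces were used, in which fewer cells of a type and less RNA per cell cannot be told apart. Levels are given in FPKM, fragments per kilobase of transcript, scaled to the mapped fragments of the library, summed over the transcripts of a gene, so that they can be set side by side between genes.

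The respiratory chain passes electrons from NADH (complex I) and succinate (complex II) through ubiquinone to complex III, then through cytochrome c to complex IV, where oxygen is reduced. Protons pumped on the way drive the ATP synthase (complex V). A few subunits of these complexes are encoded by mitochondrial DNA, and all others, such as the ones described here, by nuclear genes. Neurons depend heavily on this pathway for the ATP that ion pumping and synaptic transmission consume.

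The Puberty 2 library stood apart from the other 8, and results are given with and without it. Its FPKM over all transcripts summed to 599726, against 359588 to 398109 in the others, and 1058 of the 14238 genes tested were listed at 0 in it, against 52 to 151. The summed FPKM of 9 neuron markers ranged from 493 to 1885 in the other libraries and was 367 in Puberty 2. Among these 9 markers, SNAP25, a synaptic vesicle fusion protein, was at 144 to 558 FPKM in the other libraries and at 57 in Puberty 2. SYT1, RBFOX3, GAP43 and ELAVL4 were also lowest in Puberty 2. STMN2, SYN1, NEFL and NEFM lay inside the range of the other libraries, with NEFM at 42.9 FPKM against 22 to 565. GNRH1, which marks a sparse class of hypothalamic neurons, was listed at 0 in all 9 libraries. The 13 hypothalamic markers summed to 11.8 to 160 FPKM, and 7 of them passed the filter on low values. SST made up 95.4 of the 106 FPKM in Prepuberty 2 and 107 of the 160 in Postpuberty 3. AGRP was at 0 to 0.169 FPKM and SIM1 at 0 to 0.111.

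Most of the subunit genes were abundant. All 62 passed the filter on low values and none was listed at 0 in any library. The median over the 8 libraries other than Puberty 2 was at least 50 FPKM for 40 of them and at least 100 FPKM for 22, and the median subunit gene lay at the percentile 96.3 of all genes tested. Together they took between 1.76% and 2.61% of the gene FPKM in these 8 libraries and 3.55% in Puberty 2. The genes lay on 19 chromosomes, and among them NDUFS8 with NDUFV1, and NDUFS7 with ATP5F1D, lay within 200 kb of each other. A single transcript made up the gene for 41 of the 62.

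Complex I, the NADH dehydrogenase, had its 3 highest members in NDUFS5, NDUFB8 and NDUFB11, with means over the 9 libraries of 191, 186 and 152 FPKM. All are supernumerary subunits, which surround the catalytic core. Without Puberty 2 the mean of NDUFS5 was 121.6 FPKM and that of NDUFB8 166.8, so the order of the highest complex I genes depended on that library. The 30 supernumerary subunits as a class had a median level of 48.7 FPKM over the 8 libraries, between those of the modules of the core, which carries out electron transfer (38.3 and 69.9). NDUFV1, NDUFV2 and NDUFS1, which form the NADH-oxidising module, had medians from 21.8 to 67.1 FPKM over the 8 libraries. In the ubiquinone-reducing module, the medians were 40.51 FPKM for NDUFS3, 75.01 for NDUFS7 and 64.75 for NDUFS8. The lowest complex I member was NDUFB6, a membrane-arm subunit, with a mean of 6.85 FPKM.

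Complex II, the succinate dehydrogenase of the citric acid cycle, was led by its catalytic subunits. The flavoprotein SDHA had a mean of 108.5 FPKM over the 9 libraries and the iron-sulfur protein SDHB 81.71, while the membrane anchors SDHC and SDHD had 39.67 and 27.67. SDHA stood at 1.31 to 1.61 times SDHB in the 8 libraries and at 0.951 times in Puberty 2. UQCRH, the hinge protein of complex III that lies next to cytochrome c1, had a mean of 303.8 FPKM over 9 libraries and 233.7 over 8, the highest of the 62 in the 9-library mean. That rank depended on Puberty 2, since ATP5F1B (281.4) and ATP5F1A (240.5) had higher means over the 8 libraries. In complex IV, the cytochrome c oxidase, NDUFA4 had a mean of 207.9 FPKM and COX5A 98.61. NDUFA4 was first described in complex I and is now counted with complex IV. Its level was 2.05 to 3.05 times that of COX5A in the 8 libraries and 1.36 times in Puberty 2.

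NDUFA4L2, a hypoxia-inducible paralogue of NDUFA4, was the lowest of all 62 genes. It was at 0.549, 0.384 and 0.837 FPKM in Prepuberty 1, 2 and 3, at 0.656, 2.26 and 0.395 in Puberty 1, 2 and 3, and at 0.0393, 0.386 and 0.326 in Postpuberty 1, 2 and 3. All 9 values were a small part of the level of NDUFA4, whose lowest library was at 136.4 FPKM.

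Complex V was led by the catalytic head. ATP5F1B, the catalytic beta subunit, had a mean of 273.7 FPKM, ATP5F1A, the alpha subunit, 242.3 and ATP5ME, a small membrane subunit, 233.9, of which ATP5ME had 162.5 without Puberty 2. The lowest was ATP5PB of the peripheral stalk at 63.2. The alpha and beta subunits, which occur in equal number in the enzyme, were closely matched: ATP5F1A stood at 0.81 to 0.886 times ATP5F1B in 8 libraries, and at 1.21 times in Puberty 2. ATP5IF1, which inhibits ATP hydrolysis by the enzyme, was at 0.553 to 0.754 times ATP5F1E, a central-stalk subunit, in the 8 libraries and at 0.743 times in Puberty 2.

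The c subunit of the proton-conducting ring is encoded by 3 genes whose mature proteins are the same, and all 3 were expressed at similar levels. Over the 8 libraries ATP5MC1 had a mean of 163.4 FPKM, ATP5MC2 130.4 and ATP5MC3 122.5. ATP5MC1 was at 1.11 to 1.52 times ATP5MC3 in these libraries and at 3.03 times in Puberty 2. ATP5MC2 was at 0.849 to 1.56 times ATP5MC3 in the 8 libraries and at 1.6 times in Puberty 2, and the highest of the 8 were Prepuberty 1 (1.56) and Postpuberty 1 (1.34). ATP5MC3 was lowest in those libraries, at 87.5 and 94.0 FPKM, whereas ATP5MC2 was at 136.8 and 126.3 there.

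ATP5MC2 was also the steadiest of the 62 genes, with an SD of 0.0681 in log2(FPKM + 1) over the 8 libraries, while its main transcripts traded places. The transcript NM_001009468.1 made up 74.7% of the gene in Prepuberty 1 and 36.9% to 55.9% in the other 7 of these libraries. XM_012159908.5 made up 25% in Prepuberty 1 and 43.7% to 62.6% in the others. The sum of the gene nevertheless stayed between 119.3 and 138.5 FPKM. StringTie estimates how reads divide between overlapping transcripts, and these shares carry that uncertainty. For 53 of the 62 genes the leading transcript held at least 90% of the gene in every library. The other 9 were ATP5F1C, ATP5MC2, ATP5PF, NDUFA2, NDUFB1, NDUFS7, NDUFS8, NDUFV3 and SDHB.

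Across the 8 libraries other than Puberty 2, the subunit genes mostly varied together. The median SD in log2(FPKM + 1) was 0.23 for the 62 genes, 0.276 for all genes tested and 0.241 for the 2178 genes with a median of at least 20 FPKM, so that their spread was close to that of other abundant genes. Summed FPKM of the 62 genes was 4545, 6004 and 5107 in Prepuberty 1, 2 and 3, 5791 and 5888 in Puberty 1 and 3, and 4331, 6326 and 5277 in Postpuberty 1, 2 and 3. Prepuberty 1 and Postpuberty 1 were lowest, Prepuberty 2 and Postpuberty 2 highest, and the spread inside these stages exceeded the distance between them. The highest library was at 1.37 times the lowest for complex I, 1.56 for complex II, 1.6 for UQCRH, 1.78 for complex IV and 1.49 for complex V.

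**Figure D1:**
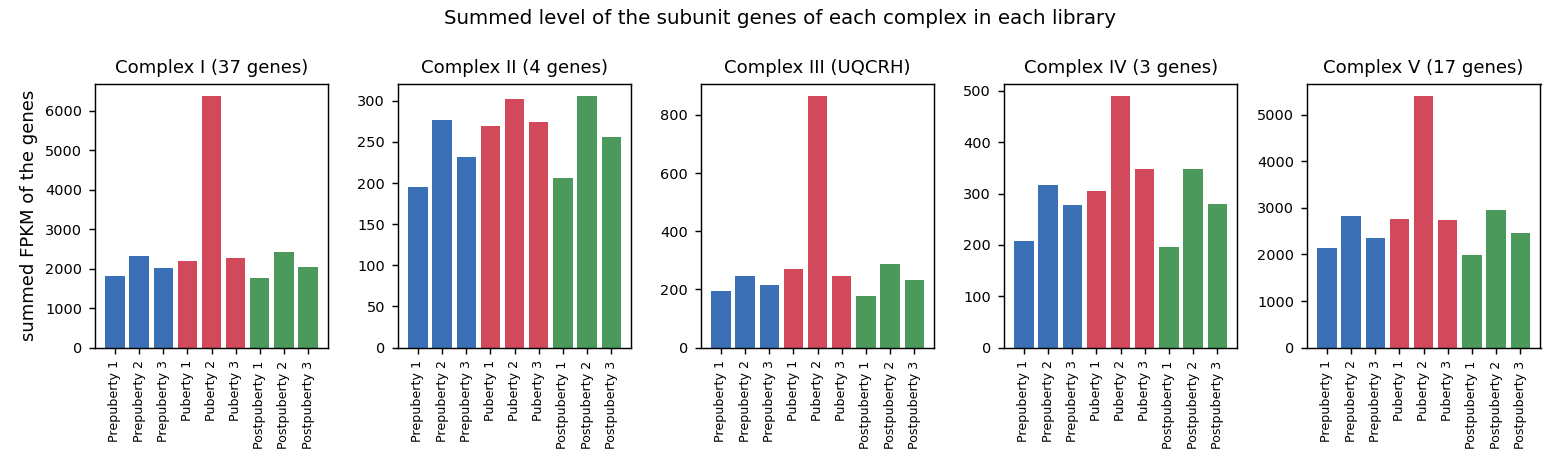
Bars show the summed FPKM of the subunit genes of each complex (vertical axes, each starting at 0 with its own scale) in each of the 9 libraries (horizontal axis), coloured by stage. Puberty 2 was the highest bar for complexes I, III, IV and V, but not for complex II, where it was at 301.8 and Postpuberty 2 at 305.5.

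The low libraries were shared by most genes. Of the 62, 49 (79%) had their lowest value of the 8 libraries in Prepuberty 1 or Postpuberty 1, against 29.2% of all genes tested, and for 38 (61.3%, against 10.6% of all genes) both libraries were below all 6 others. In Postpuberty 1 only 2 of the 62 genes, NDUFB5 and NDUFB6, were above their own median, and in Prepuberty 1 it was 10. The median deviation of the 62 genes was -0.286 in Prepuberty 1 and -0.287 in Postpuberty 1 on the log2(FPKM + 1) scale, where all genes tested had 0.006 and 0.028. Postpuberty 2 was the highest of the 8 libraries for 31 genes (50%, against 10.2% of all genes). These counts describe libraries picked after their values were seen, and carry no test.

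**Figure D2:**
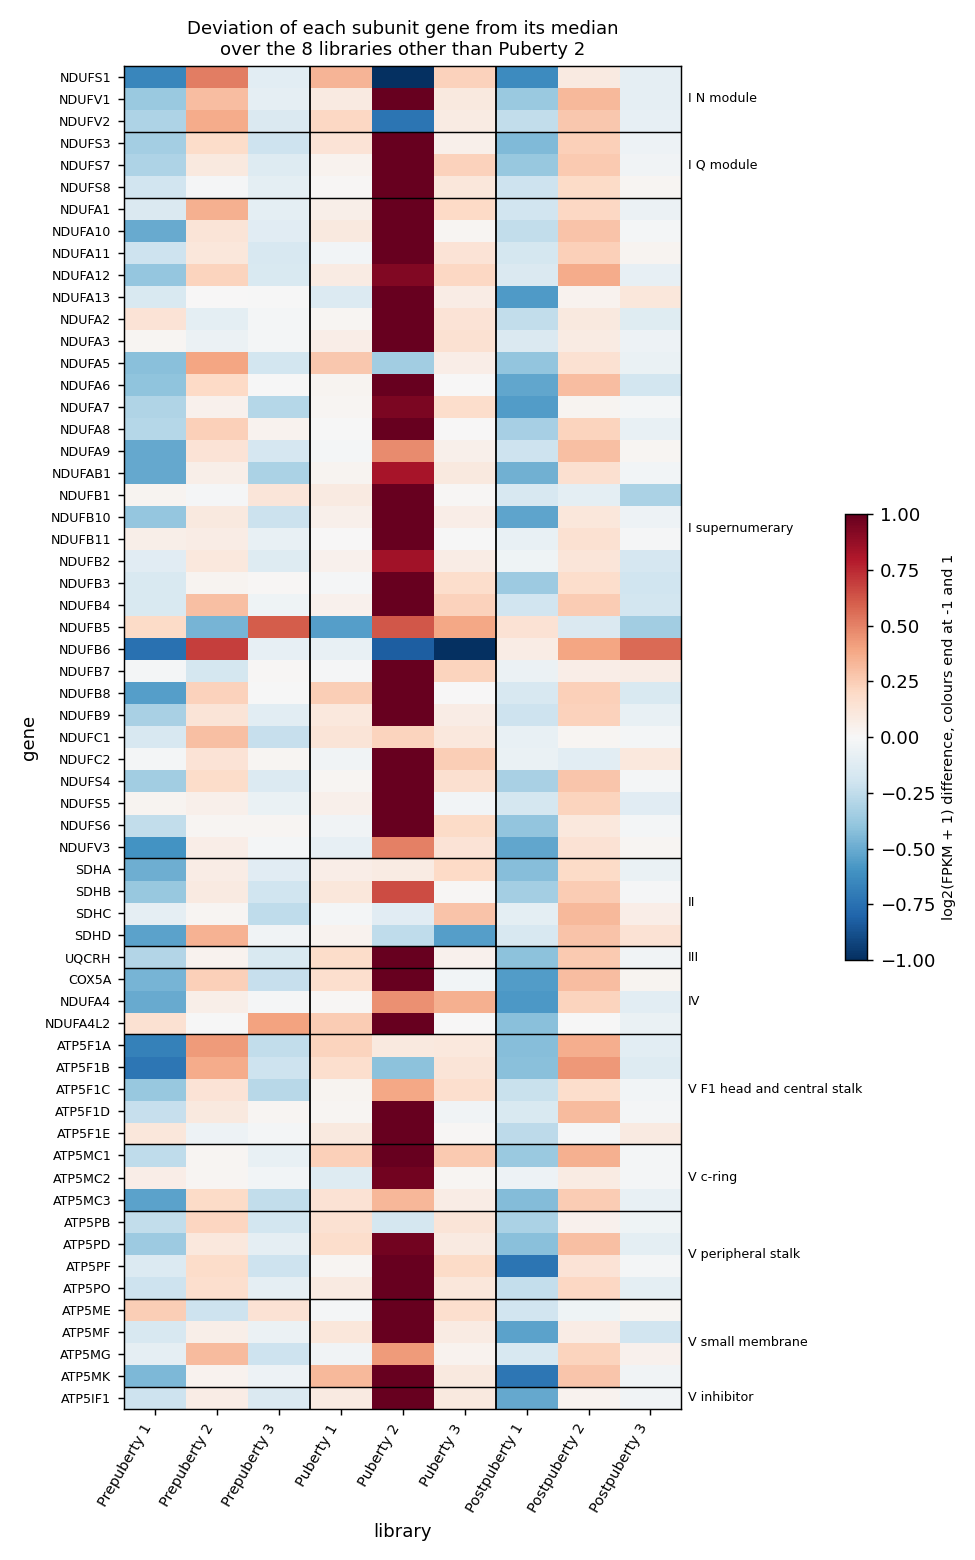
Each row is a subunit gene, grouped by complex and role with 1 gene not shown, and each column a library. Colour gives the difference of log2(FPKM + 1) from the gene's median over the 8 libraries other than Puberty 2, red for higher and blue for lower. Prepuberty 1 and Postpuberty 1 are blue in most rows, Puberty 2 is red in most, and NDUFS1, NDUFB6 and NDUFV2 are blue in Puberty 2.

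Prepuberty 1 and Postpuberty 1 also had the lowest neuron marker levels of the 8 libraries. The 9 markers with values summed to 713 and 493 FPKM there and to between 1243 and 1885 in the other 6. Their median deviation was -1.10 and -1.25 log2 units there and -0.08 to 0.34 in the other 6. Inside those 6 the order depended on the measure: Postpuberty 3 had the highest marker sum (1885), of which NEFL made up 500 and NEFM 565, while Prepuberty 2 had the highest median deviation (0.34). The subunit sums were 5277 in Postpuberty 3 and 6004 in Prepuberty 2. Puberty 2 went the opposite way, with the lowest neuron marker sum, 367, and the highest subunit sum, 13419. It was also the lowest of the 9 libraries for 51.9% of all genes tested. The median deviation in Puberty 2 was -1.30 for neuron, -1.25 for endothelial and -0.83 for mural cell markers. It was 0.39 for oligodendrocyte markers and -0.48 for all genes tested. Oligodendrocyte markers (6 genes) summed to 14353 and 14146 FPKM in Prepuberty 1 and Postpuberty 1 and to 6204 to 13092 in the other 6, and astrocyte markers (7 genes) to 9429 and 7644 against 3879 to 6912. Most of the astrocyte sum was GFAP (6624 and 5632), and the median deviation of the 7 markers was 0.45 in Prepuberty 1 and -0.02 in Postpuberty 1. In Postpuberty 1, mural cell markers summed to 602 FPKM (98.5 to 228 in the other 7), mainly ACTA2 (233) and TAGLN (225), and pituitary markers to 221 (2.84 to 94.5), mainly PRL (200). The median deviation of the 8 mural cell markers in Postpuberty 1 was 0.38, and KCNJ8 of that list was lowest there (4.15 FPKM). The part of cell composition in the subunit levels was not tested.

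**Figure D3:**
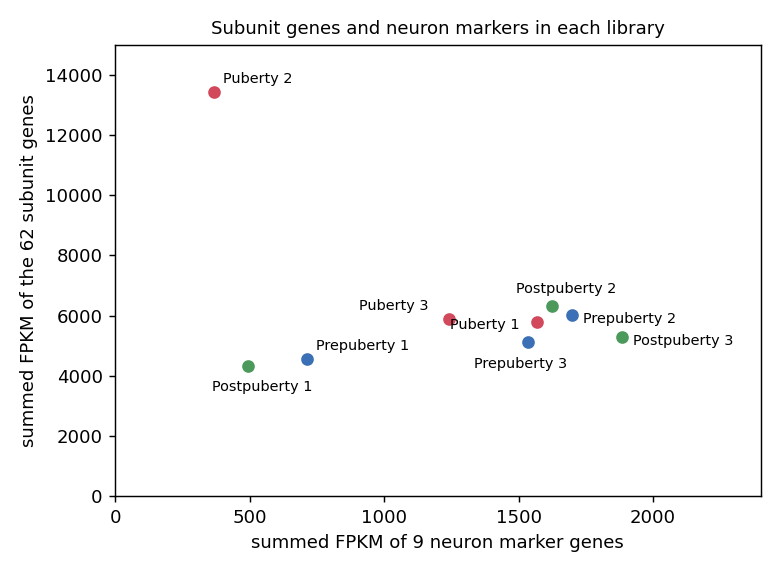
Each point is a library, with the summed FPKM of 9 neuron marker genes on the horizontal axis, the summed FPKM of the 62 subunit genes on the vertical axis, and colour for the stage (blue prepuberty, red puberty, green postpuberty). Prepuberty 1 and Postpuberty 1 lie low on both axes, and Puberty 2 lies apart with 13419 FPKM at a marker sum of 367.

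The genes that varied most among the 8 libraries included the catalytic head of the ATP synthase and a large core subunit of complex I. NDUFB6 had an SD of 0.622 in log2(FPKM + 1), followed by NDUFS1 (0.426), NDUFB5 (0.42), ATP5F1B (0.40) and ATP5F1A (0.391). ATP5F1B was at 169.9, 364.7 and 243.3 FPKM in Prepuberty 1, 2 and 3, at 316.9, 212.1 and 307.6 for the pubertal ewes, and at 210.2, 381.0 and 257.7 for the postpubertal ewes. Its lowest of the 8 libraries were again Prepuberty 1 and Postpuberty 1, and the stages overlapped. NDUFS1, the largest subunit of complex I, was at 13.5, 31.5 and 20.1 FPKM in Prepuberty 1, 2 and 3, at 27.8, 6.24 and 25.7 in Puberty 1, 2 and 3, and at 13.7, 23.3 and 20.3 in Postpuberty 1, 2 and 3. It had the same low libraries among the 8, with Puberty 2 lower still.

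NDUFB5, a supernumerary subunit of the membrane arm, followed another order. It was at 33.3, 20.8 and 44.8 FPKM in Prepuberty 1, 2 and 3, at 19.5, 45.1 and 38.4 for the pubertal ewes, and at 32.2, 26.2 and 22.6 for the postpubertal ewes, with overlapping stages. At the other end, after ATP5MC2, the steadiest genes were NDUFB11 (SD 0.0765), NDUFA3 (0.0938), NDUFB2 (0.115) and NDUFB7 (0.116), all supernumerary complex I subunits. NDUFB11 stayed between 105.4 and 123.7 FPKM in the 8 libraries and was at 470.6 in Puberty 2.

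Puberty 2 held the highest value of the 9 libraries for 51 of the 62 genes (82.3%), against 20.2% of all genes tested. Among the 2178 genes with a median of at least 20 FPKM the share was 38.3%. Its level was a median of 2.11 times the median of the other 8 libraries (quartiles 1.41 and 3.05), where the median over all genes tested was 0.567 and over the 2178 genes with a median of at least 20 FPKM it was 0.966. Of the 62 genes, 36 (58.1%) were at least 2 times as high, against 14.5% of all genes and 23.1% of the more abundant ones. The median deviation of the subunit genes in Puberty 2 on the log2(FPKM + 1) scale was 1.07 as deposited, 0.44 under equal totals, 1.25 under upper-quartile and 0.46 under quantile scaling. That of all genes was -0.48, -0.80, -0.39 and 0.07 in the same order, so the subunit genes were on the higher side under each scaling. Quantile scaling gives every library the same distribution, so the value near 0 for all genes was set by the method.

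The excess in Puberty 2 was uneven between complexes. Summed FPKM in that library was 3.01 times the median of the others for complex I, 3.62 for UQCRH, 2.07 for complex V, 1.68 for complex IV and 1.15 for complex II. UQCRH was at 864.2 FPKM in Puberty 2 and between 179.1 and 286.1 in the other 8. SDHA was at 118.0 FPKM in Puberty 2, inside its range of 79.1 to 128.1 elsewhere. The 4 succinate dehydrogenase genes had ratios from 0.833 to 1.58, and none reached 2.

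The excess also differed by subunit. The highest ratios of the 62 genes were those of NDUFS5 (6.17), NDUFA4L2 (5.8, from a median of 0.39 FPKM), NDUFA13 (5.13), NDUFB7 (5.08) and ATP5ME (5.04). NDUFS5 was at 749.9 FPKM in Puberty 2 and between 107.8 and 141.6 elsewhere. The lowest were those of NDUFS1 (0.286), NDUFB6 (0.499), NDUFV2 (0.591), ATP5F1B (0.75), NDUFA5 (0.762), SDHD (0.833), ATP5PB (0.886) and SDHC (0.921), the 8 genes with ratios below 1. The NADH-oxidising module of complex I was thus split, since NDUFV1 had a ratio of 2.87 while its partners NDUFV2 and NDUFS1 had 0.591 and 0.286. In complex V the small membrane subunits had a median ratio of 2.87, the peripheral stalk 2.01, the c-ring genes 1.96 and the catalytic head with its central stalk 1.31.

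**Figure D4:**
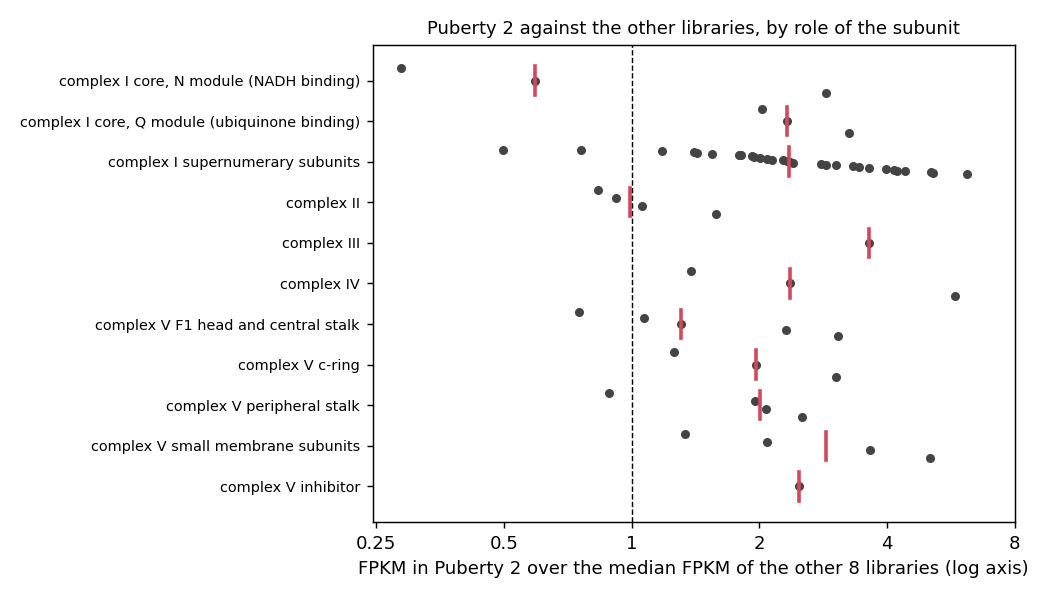
Each point is a subunit gene (1 gene is not shown), placed by its FPKM in Puberty 2 over its median FPKM in the other 8 libraries (horizontal log axis) and by its role (vertical axis), with red bars at the median of each role. Points run from 0.286 (NDUFS1) to 6.17 (NDUFS5), and the complex II genes lie closest around 1.

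Genes of short span tended to have the higher Puberty 2 ratios, and this held for genes at large. Spearman's rho between the length of the gene on the ARS-UI_Ramb_v3.0 assembly and the Puberty 2 ratio was -0.49 over the 62 subunit genes, -0.41 over 14203 genes tested and -0.54 over the 2178 more abundant ones. The points of each of these correlations share the same libraries, and they are given as descriptions. The 31 subunit genes at or below the median span of 7.9 kb had a median ratio of 2.36, and the 31 longer ones 1.79. ATP5ME spans 1.48 kb and NDUFS1 33.4 kb, but the longest genes, NDUFS4 with 113 kb and NDUFA10 with 38.8 kb, had ratios of 2.28 and 2.79. The ratio was also lower for the genes that varied more among the other 8 libraries (Spearman's rho -0.49, 62 genes).

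No subunit gene passed the thresholds between stages. The limma test on log2(FPKM + 1) called 0 of the 62 genes in puberty against prepuberty, postpuberty against puberty and postpuberty against prepuberty, at an absolute difference of at least 1 and an adjusted p below 0.05. The background was the same, with 0% of the 14238 genes tested called in each comparison, and 0% of 14209 when Puberty 2 was left out. At an unadjusted p below 0.05, limma gave 0, 1 and 0 of the 62 genes in the 3 comparisons (1.82%, 2.14% and 0.815% of all genes), and 0 in each without Puberty 2 (1.66%, 2.11% and 1.87% of all genes), so that the counts were near the background. The median SE of a subunit gene's difference between puberty and prepuberty was 0.34 with all libraries and 0.22 without Puberty 2.

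Between puberty and prepuberty most subunit genes were on the higher side at puberty, by less than the test could resolve. The median difference of the 62 was 0.50 on the log2(FPKM + 1) scale, against -0.14 for all genes tested, and 58 (93.5%) were positive, against 36.8% of all genes. Under equal totals and under quantile scaling the median was 0.27, against -0.27 and 0.01, with 51 and 52 positive (24.5% and 51.2% of all genes). Without Puberty 2 the median was 0.17 against 0.02, with 55 (88.7%) positive against 55.3%. When Prepuberty 1 and Postpuberty 1 were left out as well, the median was 0.07 against 0.03, and 50 of the 62 were positive against 56.4% of all genes. Markers of cell types moved as well. With all 9 libraries, 2 of the 9 neuron markers had a positive difference (median -0.44), and without Puberty 2, 8 of 9 (median 0.28). The 4 choroid plexus markers had medians of 0.98 and 1.62 with and without Puberty 2, and summed to 7619 FPKM in Puberty 3, nearly all of it TTR (7594), against 12.6 to 727 in the other 8 libraries. The part of these cells in the subunit differences was not tested.

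Among genes with higher puberty means, the smallest p-values belonged to 3 that did not pass. ATP5MC1, of the c-ring, was at 133.3, 161.4 and 151.3 FPKM in prepuberty and 187.5, 484.4 and 190.6 in puberty, so that the stages did not overlap. Its difference was 0.80 (SE 0.39, limma adjusted p = 0.838), and 0.35 (SE 0.23, adjusted p = 1) without Puberty 2. ATP5MK, a small membrane subunit, was at 94.5, 132.3 and 125.0 FPKM in prepuberty and 162.3, 472.1 and 138.1 in puberty, again without overlap (difference 0.91, SE 0.47, limma adjusted p = 0.838, and 0.36 without Puberty 2). NDUFAB1, the mitochondrial acyl carrier protein, was at 32.3, 48.4 and 37.1 FPKM against 47.4, 83.1 and 49.7, with overlap (difference 0.57, SE 0.30, limma adjusted p = 0.838, and 0.32 without Puberty 2). On the negative side stood NDUFB6 (-0.62, SE 0.41), SDHD (-0.18, SE 0.29) and NDUFS1 (-0.28, SE 0.54), and NDUFS1 turned to 0.37 (SE 0.35) without Puberty 2.

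Complete separation of the libraries was seen for 7 genes that were higher at puberty, namely UQCRH, NDUFA3, ATP5IF1, ATP5MK, NDUFS8, ATP5MF and ATP5MC1, and for 0 that were lower. Among all genes tested, 2.32% separated with puberty higher and 2.84% with puberty lower. The same 7 genes separated without Puberty 2, where the shares of all genes were 7.16% and 4.55%, beside the 11.3% that 7 of 62 make. The number also depended on the scaling, with 3 genes under equal totals (4.84%, where 1.43% of all genes separated with puberty higher), 21 under upper-quartile scaling (33.9%, against 2.87%) and 13 under quantile scaling (21%, against 3.35%), all with puberty higher. With 3 animals a stage, the smallest two-sided p of an exact permutation test is 0.1.

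From puberty to postpuberty the pattern was the mirror image, and it shares the puberty libraries with the previous comparison. The median difference was -0.49 against 0.19 for all genes, with 5 of the 62 (8.06%) positive against 67.6%. Under equal totals it was -0.30 with 10 positive, and under quantile scaling -0.31 with 8 (76.6% and 49.2% of all genes). Without Puberty 2 it was -0.15 against 0.03, with 7 positive, and without Prepuberty 1 and Postpuberty 1 as well it was -0.03 against 0.03, with 24 positive, where 55.1% of all genes were positive in both. The size of the median thus depended on Puberty 2 and Postpuberty 1, while the count of positive genes stayed below the background share. The neuron markers had a median difference of 0.41 with all libraries (5 of 9 positive) and -0.35 without Puberty 2 (2 of 9), and the choroid plexus markers of -0.47 and -1.11, whose part in the subunit differences was not tested either.

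NDUFB6 was the 1 gene with an unadjusted p below 0.05 in any comparison. It was at 3.68, 11.7 and 6.43 FPKM in Prepuberty 1, 2 and 3, at 6.44, 3.43 and 2.69 in Puberty 1, 2 and 3, and at 7.3, 9.34 and 10.6 in Postpuberty 1, 2 and 3. The lowest postpuberty library was above the highest puberty library, while the prepuberty libraries, from 3.68 to 11.7, overlapped with each of these stages. The difference between postpuberty and puberty was 1.01 (SE 0.41, limma adjusted p = 0.78), and 0.93 (SE 0.45, limma adjusted p = 1) without Puberty 2. NDUFB6 lies on chromosome 2 (101693883 to 101708539, ARS-UI_Ramb_v3.0) and is also the lowest of the complex I genes.

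The next genes on the higher side were SDHD (0.35, SE 0.29) and NDUFV2 (0.13, SE 0.32), and NDUFV2 turned to -0.17 without Puberty 2. On the lower side stood NDUFA4L2 (-0.66, SE 0.32), ATP5MF, a small membrane subunit (-0.63, SE 0.32), and ATP5MK (-0.92, SE 0.47), each with a limma adjusted p of 0.78. Without Puberty 2 these differences were -0.29, -0.31 and -0.37 (limma adjusted p = 1 for each). Libraries separated completely for NDUFB6 with postpuberty higher (1 gene, against 5.25% of all genes) and for ATP5IF1, NDUFB1, NDUFC1, NDUFA4L2 and ATP5MF with postpuberty lower (5 genes, against 2.07%). Without Puberty 2 the counts were 1 (7.9% of all genes) and 7 (6.19%), the latter with ATP5PB and NDUFS1 added. NDUFC1, a small subunit of the complex I membrane arm, showed how little such a separation can mean in size: it was at 15.3, 16.5 and 15.1 FPKM in puberty and 13.2, 14.2 and 13.8 in postpuberty (difference -0.18, SE 0.23).

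Postpuberty and prepuberty had nearly the same levels. The median difference was 0.01 against 0.05 for all genes, with 36 of the 62 (58.1%) positive against 62.1%. The direction turned with single libraries: without Prepuberty 1 the median was -0.07 with 13 genes positive (60.2% of all genes), without Prepuberty 2 it was 0.15 with 48 (61.9%), without Postpuberty 1 it was 0.16 with 55 (60.4%), and without Postpuberty 2 it was -0.10 with 10 (61.1%). It also turned with the scaling, to -0.03 with 27 positive under equal totals (54.5%), -0.05 with 26 under upper-quartile (50.2%) and -0.02 with 28 under quantile scaling (50.4%). The smallest p-values belonged to NDUFB6 (0.39, SE 0.41), SDHC (0.21, SE 0.23) and NDUFA9 (0.22, SE 0.27) on the higher side and to NDUFA4L2 (-0.35, SE 0.32), NDUFB1 (-0.24, SE 0.38) and NDUFB5 (-0.23, SE 0.38) on the lower side, all with a limma adjusted p of 1.

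NDUFB1 was the only one of the 62 whose postpuberty and prepuberty libraries separated, with 23.3, 24.4 and 20.7 FPKM in postpuberty against 26.6, 26.0 and 28.5 in prepuberty. Separation with postpuberty lower occurred in 1.4% of all genes, and with postpuberty higher in 3.17%, where the subunit genes had 0.

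**Figure D5:**
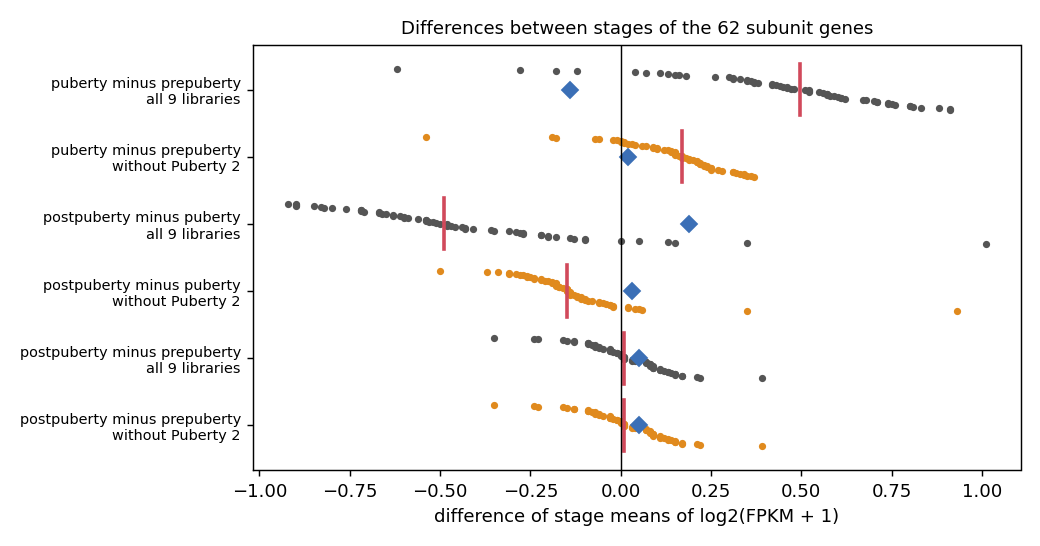
Each point is the difference of stage means of log2(FPKM + 1) of a subunit gene (horizontal axis) in a comparison with all 9 libraries (grey) or without Puberty 2 (orange), red bars mark the median of the 62 genes and blue diamonds the median of all genes tested. The red bar for puberty minus prepuberty lies at 0.50 with all libraries and at 0.17 without Puberty 2.

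By complex, the summed levels of Puberty 1 and 3 lay inside the ranges of the other stages for complexes I, II and V, and partly above them for complexes III and IV. Complex I summed to 2053 ± 263 FPKM at prepuberty (SD, n = 3), to 2188 and 2280 in Puberty 1 and 3, and to 2077 ± 330 at postpuberty (SD, n = 3). Complex V summed to 2446 ± 355, to 2757 and 2740, and to 2472 ± 490 in the same order, and complex II to 234.6 ± 41, to 269.7 and 274.5, and to 256.2 ± 49.5. UQCRH, for complex III, was at 271 and 246.3 FPKM in Puberty 1 and 3, both above its prepuberty libraries (195.2 to 245.3) and inside the postpuberty range of 179.1 to 286.1. Complex IV summed to 304.7 and 347.9 FPKM there, of which Puberty 3 was above all prepuberty (207 to 316) and postpuberty libraries (195.3 to 347.1). With Puberty 2 included, which was at 6364 FPKM, the puberty mean of complex I was 3611 FPKM, and that of complex II was 282 ± 17.3 (SD, n = 3).

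Genes that act around the respiratory chain were read from lists, and limma called none of them in any comparison either. With all 9 libraries, an unadjusted p below 0.05 was found for 1 gene of the 5 lists, a mitochondrial ribosomal protein gene lower at postpuberty than at puberty, where 2.14% of all genes had such a p. Without Puberty 2 there was 1 assembly factor on the higher side for puberty minus prepuberty, 1 on the lower side for postpuberty minus puberty, and 1 mitochondrial ribosomal protein gene on the lower side in each of these comparisons, where 1.66% and 2.11% of all genes had such a p. The 5 lists were the citric acid cycle, mitochondrial ribosome, assembly factors, regulators of biogenesis, and electron carriers and exchange, of which the last had a median deviation of -0.41 in Puberty 2. The 17 genes of the citric acid cycle and pyruvate dehydrogenase, which supply NADH and succinate, had median deviations of -0.51 and -0.33 in Prepuberty 1 and Postpuberty 1, where the subunit genes were low too, but -0.79 in Puberty 2, where the subunit genes were high. With all 9 libraries, 8 of these 17 genes had a positive difference for puberty minus prepuberty (median -0.01, against 36.8% of all genes positive) and 11 for postpuberty minus puberty (median 0.10, against 67.6%). Without Puberty 2 these were 17 (median 0.21, against 55.3%) and 0 (median -0.14, against 55.1%). The 74 mitochondrial ribosomal protein genes that passed the filter were high in Puberty 2 like the subunit genes (0.84) and near their median in the other libraries (-0.17 to 0.14). With all 9 libraries, 59 of these 74 were positive for puberty minus prepuberty (median 0.32) and 14 for postpuberty minus puberty (median -0.28). Without Puberty 2 these were 45 (median 0.04) and 32 (median -0.02). The shares of all genes are those given above for each comparison.

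Of the assembly factors, which build the complexes without staying in them, 27 of 51 listed had values, and their median deviation was -0.15 in Puberty 2. The 19 regulators of mitochondrial biogenesis were at -0.84 in Puberty 2, but only at -0.11 in Prepuberty 1 and -0.06 in Postpuberty 1. Among these, PPARGC1A, the coactivator that promotes mitochondrial gene expression, was at 0.671, 2.65 and 2.01 FPKM in Prepuberty 1, 2 and 3, at 3.42, 0.679 and 2.04 for the pubertal ewes, and at 1.48, 2.25 and 1.57 for the postpubertal ewes. It was lowest in Prepuberty 1 and Puberty 2, and its stages overlapped. ESRRG, an orphan nuclear receptor that works with PPARGC1A, was at 0.296 and 0.415 FPKM in the same libraries and at 1.85 to 7.3 in the others.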

How the data were processed

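RNA of 9 hypothalami was sequenced by the authors, who trimmed reads with Trimmomatic (version 0.32 per the submitters' processing notes), aligned them with HISAT2 to the sheep assembly ARS-UI_Ramb_v3.0 and quantified transcripts with StringTie. The deposited values are FPKM per transcript, although described as raw counts, so read depth is not known from them and no count test was used. Of 76684 rows with NM_ or XM_ identifiers, 76682 were matched to sheep gene symbols in the RefSeq table of the same assembly and summed per gene. Reads assigned to transcripts with other identifiers are not in these sums, and other subunits of complexes III and IV were not analysed here.

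Genes with a mean of at least 0.5 FPKM in a stage were kept (14238). Differences were tested with limma 3.58.1 in R 4.3.3 (variance trend, 9 libraries, 3 stages) on log2(FPKM + 1), with Benjamini-Hochberg adjustment over all genes tested. Differences understate changes of low genes. The script was tested on simulated data. The libraries come from separate animals. The sample labels name no pairing of animals by replicate number. Tables and figures were made with Python 3.11.15, pandas 2.3.3 and matplotlib 3.10.9.

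Named genes were, per comparison, the 3 with the smallest p in each direction, per complex the 3 highest and the lowest by mean, fixed sets of alternative subunits, and the 5 most and 5 least variable genes. Others were chosen after their values were seen. The members and lists were chosen with earlier results of these data known. Alternatives were other pseudocounts, filters, scalings and fits, and leaving out libraries. Of the 62 genes, 1 is included in sums and counts but is not reported here by itself.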

Additional observations from a re-analysis of the deposited data

How the results depend on the processing

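The count of subunit genes called by limma was 0 in all 3 comparisons under every alternative run: pseudocount, filters, equal totals, upper-quartile and quantile scaling, no variance trend, robust fit, only the 6 libraries compared, leaving out each library, and the fit with the replicate block. Under the replicate block the adjusted p of ATP5MC1 (puberty minus prepuberty) was 0.849 and that of NDUFB6 (postpuberty minus puberty) 0.794, and it changed no call. Correlations of deviations between libraries of the same number ran from -0.31 to 0.51. Such correlations cannot show whether libraries of the same number were paired in any way. The number of genes whose libraries did not overlap moved with scaling: for puberty and prepuberty (7, with 5.16% of all genes) it was 3 under equal totals (6.01%), 21 under upper-quartile (5.6%) and 13 under quantile scaling (5.75%), for postpuberty and puberty (6, with 7.32%) 14 (6.36%) and 10 (6.71%) under the latter scalings, and for postpuberty and prepuberty (1, with 4.57%) 2 under equal totals (4.16%) and 3 under quantile scaling (4.31%). The cause was not tested. Equal totals moved the median of all genes for puberty minus prepuberty from -0.14 to -0.27.

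Leaving out 1 library at a time, the puberty minus prepuberty difference ranged from -0.63 to 0.37 for NDUFS1 and from -0.41 to 0.03 for SDHD. The postpuberty minus puberty difference of NDUFV2 ranged from -0.17 to 0.31, and the postpuberty minus prepuberty difference of NDUFB5 from -0.52 to 0.02. The median of the 62 genes ranged from 0.17 to 0.67, from -0.68 to -0.15 and from -0.10 to 0.16 in the 3 comparisons. Without Puberty 2, Prepuberty 1 and Postpuberty 1, a choice made after seeing the data that left 2 animals a stage, NDUFS1 was at 0.08, NDUFV2 at -0.05 and the median for postpuberty minus puberty at -0.03. The table gives FPKM, with no counts behind each value, so counting error could not be separated from the spread between animals. Each stage had 3 animals, and Puberty 2 widened the spread of the puberty stage.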
